A study of Mus musculus with 18 samples.

Results

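The genes described here belong to the unfolded-protein response and the integrated stress response. They are 36 named mouse genes, each matched to 1 of the 53379 gene IDs of the deposited count table, and are treated as an ER-chaperone arm of 16 genes, an ATF4 arm of 15 genes, and 5 sensors and transcription factors. RNA was sequenced from neutrophils sorted by flow cytometry from the bone marrow of 10-week-old mice. The mice were of a genotype labelled CIS-/-, a deletion of Cish, whose product is an inducible inhibitor of cytokine signalling, or WT. Neutrophils of each genotype were lysed straight after the sort (unstimulated) or cultured for 4 h or 24 h in medium with serum and 100 ng/mL GM-CSF, a cytokine that supports survival and activation of myeloid cells. This gave 6 groups of 3 libraries. The labels give no strain and do not name the deleted exons. Nothing in them says that replicates came from different mice, so each p-value reflects only how these 18 libraries vary. Every cultured sample had GM-CSF, so effects of culture time and of GM-CSF cannot be told apart.

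The endoplasmic reticulum (ER) folds secreted and membrane proteins, and an excess of unfolded protein there is read by the sensors IRE1 (gene Ern1), PERK (gene Eif2ak3) and ATF6. IRE1 splices the Xbp1 mRNA and cleaved ATF6 enters the nucleus, and both raise transcription of chaperones and of ER-associated degradation genes. PERK and its sister kinases phosphorylate eIF2α, which slows most translation but favours that of ATF4, and ATF4 drives genes of amino acid uptake and synthesis, tRNA charging and redox balance. Neutrophils make most of their granule proteins in earlier stages of maturation, and activated neutrophils newly make cytokines and surface receptors, which pass through the ER.

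The promoters differ between the arms in the response elements they spell out, which is why they are shown here. Sequences are from RefSeq on GRCm38.p6, the 250 bases before each gene's start, for 32 of the 36 members. Both strands were searched for 4 motifs: the ER stress response element ERSE, which is CCAAT, 9 free bases and CCACG; its variant ERSE-II, which is ATTGG, 1 free base and CCACG; the XBP1 site core TGACGTGG; and the core of the ATF4 site, TGATGNAA. ERSE-II and ERSE share the CCACG end, and the reverse of that end, CGTGG, also closes the XBP1 site core, so matches of these 3 can overlap. ERSE was found in 7 of 15 ER-chaperone members with a promoter in the table, in 0 of 4 sensors and in 0 of 13 ATF4-arm members, against 0.113% of all 32851 promoters. ERSE-II was found in Herpud1, against 0.0304% of promoters. The ATF4 site core was found in Herpud1 and in 3 of 13 ATF4-arm members (Asns, Chac1 and Slc7a11), against 3.45% of promoters, and the XBP1 site core in none of the members, against 0.563% of promoters. A match is a description of letters, not a binding site, and sites beyond these windows, such as those in introns, were not searched. The whole 250-base window of Hspa5 and stretches around the matches of the members most used below follow, with the match in capitals.
Hspa5, ERSE, chr2:34771840-34772089, plus strand: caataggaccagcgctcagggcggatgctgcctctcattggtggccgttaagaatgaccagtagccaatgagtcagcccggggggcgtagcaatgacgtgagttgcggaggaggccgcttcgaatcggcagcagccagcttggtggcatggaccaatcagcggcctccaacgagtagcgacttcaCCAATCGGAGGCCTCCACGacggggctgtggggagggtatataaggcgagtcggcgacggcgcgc
Hsp90b1, ERSE, chr10:86705626-86705668, minus strand: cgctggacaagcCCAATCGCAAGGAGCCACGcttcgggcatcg
Hsp90b1, ERSE reversed, chr10:86705521-86705563, minus strand: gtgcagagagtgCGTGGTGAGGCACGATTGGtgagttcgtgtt
Calr, ERSE reversed, chr8:84847063-84847105, minus strand: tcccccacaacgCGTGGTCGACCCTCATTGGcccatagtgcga
Canx, ERSE, chr11:50325788-50325830, minus strand: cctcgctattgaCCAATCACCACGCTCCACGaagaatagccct
Pdia6, ERSE, chr12:17266479-17266521, plus strand: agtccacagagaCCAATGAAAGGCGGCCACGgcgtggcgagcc
Creld2, ERSE reversed, chr15:88819508-88819550, plus strand: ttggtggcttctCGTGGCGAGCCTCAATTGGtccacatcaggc
Herpud1, ERSE-II, chr8:94386365-94386399, plus strand: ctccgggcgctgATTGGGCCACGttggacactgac
Asns, ATF4 site core, chr6:7693213-7693244, minus strand: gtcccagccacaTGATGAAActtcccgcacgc
Slc7a11, ATF4 site core, chr3:50443660-50443691, minus strand: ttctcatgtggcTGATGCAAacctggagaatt
Each stretch is written 5′ to 3′ on the strand of its gene, and "reversed" marks a match on the other strand. The Hspa5 match lies 65 to 47 bases before the start. Hsp90b1 has 2 ERSE matches, 212 to 194 and 107 to 89 bases before the start, and Slc7a11 has a second, reversed ATF4 site core 47 to 40 bases before the start. The 7 members with an ERSE match are Hspa5, Hsp90b1, Calr, Canx, Pdia6, Creld2 and Dnajc3.

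Several facts of the libraries touch what follows. Cish, the targeted gene, had 18.2, 19.96 and 17.9 CPM (reads scaled to an equal library size) in unstimulated libraries labelled CIS-/-, against 6.48, 6.51 and 6.49 CPM in unstimulated WT libraries, so it goes against the label there. At 4 h it had 243, 240.3 and 237 CPM in libraries labelled CIS-/-, against 1155, 1137 and 1152 CPM in WT, and at 24 h it had 238, 243 and 233 CPM in libraries labelled CIS-/-, against 1068, 1055 and 1056 CPM in WT. The groups are therefore called by their labels throughout. Replicate 1 labelled CIS-/- at 24 h stood apart, with a chi-square per degree of freedom of 7.50 and 9.32 against the other two, which differed from each other by 2.54; in the other 5 groups the pairs lay between 1.29 and 3.06. Library totals ran from 12170524 to 22539858 counts. TMM scaling factors at 24 h were 0.884 to 0.894 in libraries labelled CIS-/- and 1.28 to 1.29 in WT, so directions at 24 h depend in part on scaling: with plain library sizes the median of all genes moved to -0.55 on the log2 scale for the 24 h genotype difference and to 0.45 for WT at 24 h against 4 h. The 10 neutrophil markers summed to between 109252 and 116079 CPM in unstimulated libraries and to between 33046 and 38214 CPM at 24 h. At 24 h single neutrophil markers differed between genotypes, with means of 2324 CPM for Csf3r, 866 CPM for Cxcr2 and 502 CPM for Mmp8 in libraries labelled CIS-/-, against 5896, 1834 and 824 CPM in WT, and of 10114 CPM for S100a8, 13635 CPM for S100a9 and 580 CPM for Ltf in libraries labelled CIS-/-, against 7671, 9653 and 260.4 CPM in WT. The 5 erythroid markers summed higher in libraries labelled CIS-/- at each time, to 88.6 to 89.8 CPM unstimulated, 59.0 to 87.5 CPM at 4 h and 23.3 to 33.7 CPM at 24 h, against 32.1 to 34.5, 23.4 to 27.8 and 5.95 to 7.37 CPM in WT. The part of these markers in the results was not tested. The 8 markers of B or plasma cells, cells that can mount a strong unfolded-protein response, summed to at most 3.30 CPM in any library.

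Of the 36 members, 35 passed the filter on low counts and were tested. Phgdh, the first enzyme of serine synthesis, was not tested and had at most 0.50 CPM in any library. Per gene length, the most abundant members in unstimulated libraries were Atf4, with 87.6 ± 2.66 RPKM (CPM divided by exon length in kilobases) in libraries labelled CIS-/- and 82.5 ± 1.15 RPKM in WT, and Hspa5, with 72.2 ± 0.407 RPKM in libraries labelled CIS-/- and 68.4 ± 0.120 RPKM in WT (SD, n = 3 each). At 24 h the order by RPKM in libraries labelled CIS-/- was Slc3a2 (356 ± 9.29), Slc7a11 (328 ± 28.9), Xbp1 (322 ± 7.06), Hspa5 (266 ± 6.16), Calr (233 ± 6.80) and Atf4 (167 ± 13.3). Slc7a11 differed from each of its neighbours in this order by no more than its own spread. In WT at 24 h it was Xbp1 (344 ± 5.11), Sesn2 (88.5 ± 0.762), Calr (63.1 ± 0.125), Hspa5 (59.6 ± 2.57) and Atf4 (57.1 ± 0.715), of which Hspa5 and Atf4 did not differ beyond their spread.

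At 24 h nearly the whole ER-chaperone arm was higher in libraries labelled CIS-/- than in WT. Of its 16 members 15 were higher and 1, Pdia4, was lower at an adjusted p under 0.05 in edgeR's quasi-likelihood test, and 10 were at least 2-fold higher. Of all 11569 genes tested 38.2% were called higher, 38.1% lower and 18.2% at least 2-fold higher. The median log2 fold change of the arm was 1.51, against -0.02 over all genes. With plain library sizes the arm had 12 members higher and 3 lower, beside 2558 higher and 6998 lower of all 11569 genes. The median of all genes then moved to -0.55. Pdia3 and Creld2 lay closer to the 2-fold line than that shift, so their place above it depends on scaling. RNA of sorted cells in bulk cannot tell more of a cell type from more RNA per cell. Beside this difference, the 8 listed monocyte or macrophage markers summed to 934 to 975 CPM in libraries labelled CIS-/-, against 495 to 515 CPM in WT, and the 7 granulocyte precursor markers to 346 to 388 CPM, against 199 to 203 CPM in WT. Most of those sums came from Adgre1 and Csf1r and from Kit. Csf1r had means of 169 CPM in libraries labelled CIS-/- and 163 CPM in WT, so the monocyte or macrophage difference was mostly Adgre1. Adgre1 had 776 CPM, against 344 CPM in WT, and Kit 365 CPM, against 187 CPM in WT. The low markers Ms4a3 and F13a1 were also higher, at 3.17 and 3.11 CPM, against 0.78 and 0.28 CPM in WT. The precursor granule genes Mpo, Elane, Prtn3 and Ctsg went the other way, at means of 2.16, 0.94, 1.25 and 0.53 CPM in libraries labelled CIS-/- and 4.68, 2.09, 5.96 and 0.81 CPM in WT, and Cx3cr1, Ccr2, Ms4a6c, Mrc1 and Cd34 averaged under 1 CPM in every group; their part in the result was not tested. B or plasma cell markers summed to 0.550 to 1.19 CPM in libraries labelled CIS-/- and to 0.245 to 0.382 CPM in WT at 24 h, with Mzb1 and Tnfrsf17 at 0 in both.

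**Figure D1:**
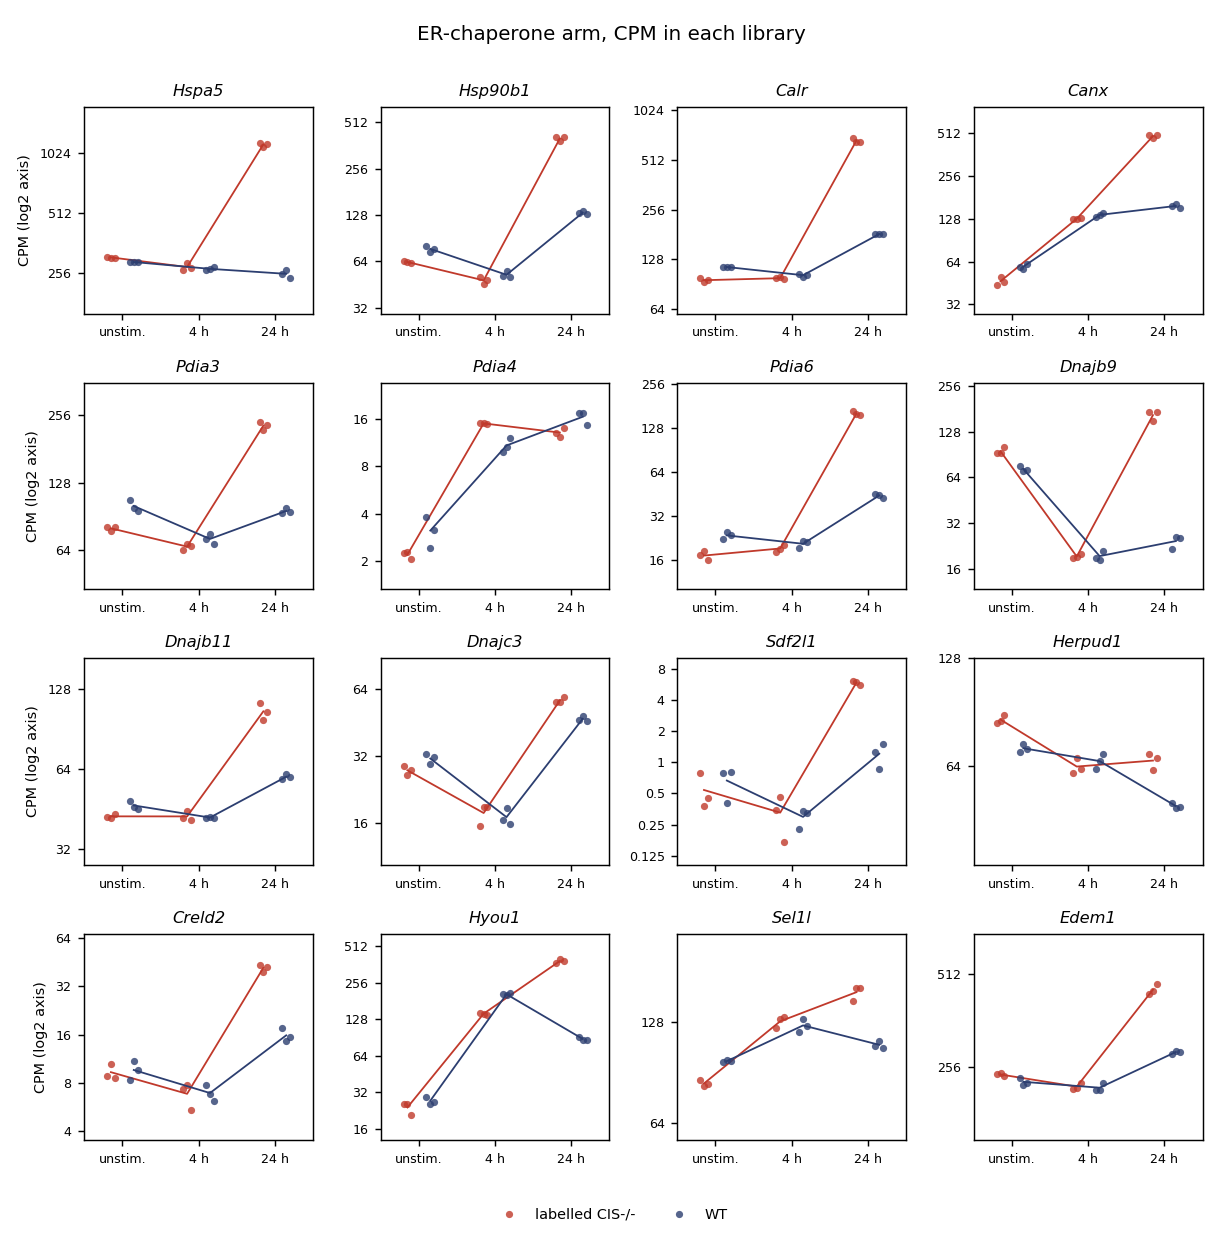
CPM of each ER-chaperone member in each of the 18 libraries, on a log2 axis, by time, with lines through the group means of libraries labelled CIS-/- and of WT. Hspa5 stands at 1095 to 1145 CPM at 24 h in libraries labelled CIS-/-, against 241 to 263 CPM in WT, and lies between 264 and 307 CPM at the earlier times in both genotypes.

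Hspa5 encodes BiP, the main ER Hsp70 chaperone, which also holds the sensors inactive. Its 24 h levels were 1145, 1095 and 1133 CPM in libraries labelled CIS-/-, against 253, 263 and 241 CPM in WT. The groups were far apart, and the log2 fold change was 2.16 ± 0.03 (SE; edgeR adjusted p = 2.0e-52). Without replicate 1 labelled CIS-/- it was 2.14. Dnajb9, the ERdj4 co-chaperone of BiP, had 171, 150 and 171 CPM at 24 h in libraries labelled CIS-/-, against 21.7, 26.0 and 25.6 CPM in WT. That was the largest log2 fold change of the arm, 2.75 ± 0.06 (edgeR adjusted p = 1.4e-42). Hyou1, an ER Hsp110 that exchanges nucleotide on BiP, had 371, 399 and 389 CPM, against 91.6, 86.0 and 86.8 CPM in WT. Its log2 fold change was 2.13 ± 0.04 (edgeR adjusted p = 4.9e-48). Sdf2l1, a low-abundance partner of the ERdj3 co-chaperone, had 6.12, 6.07 and 5.65 CPM in libraries labelled CIS-/-, against 1.26, 0.869 and 1.52 CPM in WT, and none of these values overlapped. Of all genes tested 37.6% lay higher and 38.4% lower at 24 h in libraries labelled CIS-/- without overlap of the groups.

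The lectin chaperones and the abundant glycoprotein folding partners moved in the same direction. Calr (calreticulin) had 693, 657 and 662 CPM at 24 h in libraries labelled CIS-/-, against 182 CPM in each WT library. Its membrane-bound relative Canx (calnexin) had 494, 474 and 494 CPM, against 156, 162 and 153 CPM in WT. Their log2 fold changes were 1.88 ± 0.03 and 1.63 ± 0.04. Neither pair of groups overlapped, as in 37.6% of all genes on the higher side. Hsp90b1, the ER Hsp90 known as GRP94, had 409, 387 and 412 CPM in libraries labelled CIS-/-, against 131, 136 and 130 CPM in WT. Its log2 fold change was 1.60 ± 0.04. Creld2, a small ER-resident protein, had 43.6, 39.3 and 41.9 CPM, against 17.5, 14.5 and 15.4 CPM in WT, a log2 fold change of 1.41 ± 0.08.

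The protein disulfide isomerases split. Pdia6 had 166, 159 and 157 CPM at 24 h in libraries labelled CIS-/-, against 45.2, 44.6 and 42.7 CPM in WT (log2 fold change 1.86 ± 0.05). Pdia3, which works with calreticulin and calnexin, had 240, 219 and 231 CPM, against 93.6, 98.8 and 94.2 CPM in WT (log2 fold change 1.27 ± 0.04). Pdia4 went the other way, with 13.01, 12.3 and 14.1 CPM in libraries labelled CIS-/-, against 17.4, 17.5 and 14.8 CPM in WT. Its log2 fold change was -0.33 ± 0.09 (edgeR adjusted p = 0.00083). Unlike the other isomerases it was at 2.06 to 2.28 CPM in unstimulated libraries labelled CIS-/- and 2.42 to 3.79 CPM in unstimulated WT libraries, so it was low before culture.

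Members of ER-associated degradation showed smaller differences. Edem1, which targets misfolded glycoproteins, had 441, 451 and 474 CPM at 24 h in libraries labelled CIS-/-, against 282, 289 and 287 CPM in WT. Sel1l, the scaffold of the HRD1 ligase, had 148, 161 and 161 CPM, against 109, 112 and 107 CPM in WT. Herpud1, another part of that complex, had 68.9, 62.2 and 67.5 CPM, against 50.2, 48.8 and 49.2 CPM in WT. The log2 fold changes of Edem1, Sel1l and Herpud1 were 0.67, 0.52 and 0.43, all called. None of the groups overlapped, as in 37.6% of all genes on the higher side. Dnajb11, the ERdj3 co-chaperone of BiP, had a log2 fold change of 0.82. Dnajc3, or p58IPK, a BiP co-chaperone that also curbs PERK, had 55.8, 56.0 and 58.9 CPM in libraries labelled CIS-/-, against 46.4, 48.5 and 46.2 CPM in WT, a log2 fold change of 0.28. With plain library sizes Dnajc3 and Herpud1 were called in the other direction (-0.26 and -0.11), and Sel1l was not called (-0.01, edgeR adjusted p = 0.74).

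Over time the arm behaved differently before and after 4 h. At 4 h against unstimulated, 4 members were higher and 8 lower in libraries labelled CIS-/-, beside 37.9% higher and 39.1% lower of all genes. In WT 4 were higher and 11 lower, beside 38.1% and 38.2% of all genes. The median log2 fold change was -0.15 in libraries labelled CIS-/- and -0.16 in WT, against -0.03 and -0.02 over all genes. The 4 members that rose at 4 h in both genotypes were Hyou1, Pdia4, Canx and Sel1l. Hyou1 had 145, 143 and 139 CPM at 4 h, against 25.5, 25.9 and 20.9 CPM unstimulated, in libraries labelled CIS-/-, and 206, 202 and 209 CPM, against 29.4, 25.8 and 26.8 CPM, in WT. Canx had 128, 127 and 129 CPM at 4 h, against 43.5, 49.8 and 46.2 CPM unstimulated, in libraries labelled CIS-/-, and 132, 136 and 140 CPM, against 58.8, 56.3 and 61.6 CPM, in WT. Dnajb9 fell most, to 19.03, 19.1 and 19.98 CPM at 4 h in libraries labelled CIS-/-, against 91.9, 92.2 and 101 CPM unstimulated. In WT it fell to 19.03, 18.5 and 20.96 CPM at 4 h, against 76.3, 70.5 and 71.3 CPM unstimulated.

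At 24 h against 4 h, 14 of 16 ER-chaperone members were higher and 0 lower in libraries labelled CIS-/-, beside 37.8% higher and 37.9% lower of all genes. The count of 0 lower was the same at an unadjusted p under 0.05 in edgeR and by DESeq2. Pdia4, with a log2 fold change of -0.18 (edgeR adjusted p = 0.089), was called lower with plain library sizes (-0.22, edgeR adjusted p = 0.040). Its groups did not overlap, as in 37.8% of all genes on the lower side. In WT 12 were higher and 4 lower, beside 35.7% and 39.6% of all genes. With plain library sizes 14 were higher and 1 lower in WT, beside 6762 higher and 2506 lower of all 11569 genes. The median log2 fold change was 1.86 in libraries labelled CIS-/- and 0.46 in WT, against -0.01 and -0.04 over all genes. Hspa5 had 253, 263 and 241 CPM at 24 h in WT, against 264, 266 and 272 CPM at 4 h; its log2 fold change of -0.08 was called but lost its call with DESeq2 (adjusted p = 0.066) and turned to 0.40 with plain library sizes. Hyou1 fell in WT, to 91.6, 86.0 and 86.8 CPM at 24 h, against 206, 202 and 209 CPM at 4 h, a log2 fold change of -1.22 ± 0.04. It rose in libraries labelled CIS-/-, with a log2 fold change of 1.44 ± 0.04 over the same interval. Hsp90b1 and Dnajc3 rose most in WT among members above 5 CPM, with log2 fold changes of 1.34 and 1.47, and in libraries labelled CIS-/- by 3.07 and 1.68. Against unstimulated, the arm at 24 h had 15 members higher and 1 lower in libraries labelled CIS-/- (42.1% and 42% of all genes) and 12 higher and 3 lower in WT (40.7% and 37.7%). The one that fell in both, Herpud1, had log2 fold changes of -0.38 in libraries labelled CIS-/- and -0.54 in WT.

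The 5 sensors and transcription factors did not move as one group. At 24 h, Atf4 and Atf6 were higher and Ern1, Eif2ak3 and Xbp1 were lower in libraries labelled CIS-/- than in WT, each at an adjusted p under 0.05. Of all genes 38.2% were called higher and 38.1% lower, so a call in either direction was common. Eif2ak3 fell most and Atf4 rose most. With plain library sizes Atf6 was not called (log2 fold change 0.05, edgeR adjusted p = 0.414).

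**Figure D2:**
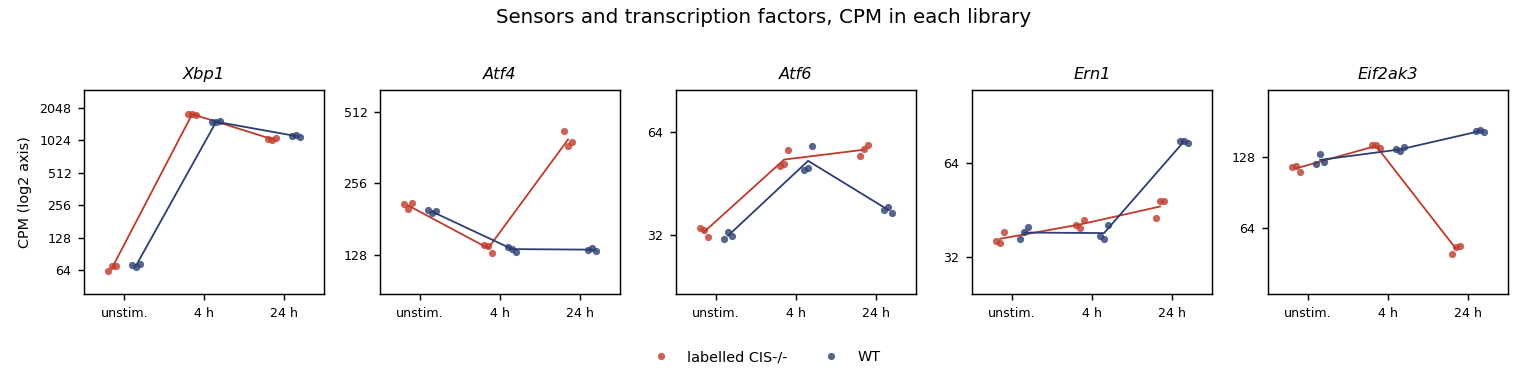
CPM of Xbp1, Atf4, Atf6, Ern1 and Eif2ak3 in each of the 18 libraries, on a log2 axis, by time, with lines through the group means of libraries labelled CIS-/- and of WT. Xbp1 rises at 4 h in both genotypes, whereas Atf4 and Eif2ak3 separate at 24 h, at 367 to 428 CPM and 50.0 to 53.8 CPM in libraries labelled CIS-/-, against 133 to 136 CPM and 165 to 166 CPM in WT.

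Xbp1, the target of IRE1 splicing, rose most of the 5 at 4 h. In libraries labelled CIS-/- it had 63.8, 69.8 and 70.0 CPM unstimulated, 1783, 1808 and 1766 CPM at 4 h and 1058, 1021 and 1062 CPM at 24 h. In WT it had 71.9, 69.2 and 72.7 CPM unstimulated, 1504, 1516 and 1531 CPM at 4 h and 1118, 1135 and 1102 CPM at 24 h. All cultured libraries lay above all unstimulated ones. At 4 h 38.4% of all genes in libraries labelled CIS-/- and 38.9% in WT lay above unstimulated without overlap. The log2 fold changes of Xbp1 at 4 h were 4.72 ± 0.04 in libraries labelled CIS-/- and 4.41 ± 0.04 in WT. Counts per gene do not separate the spliced from the unspliced Xbp1 mRNA. With TMM factors the genotype difference in Xbp1 was small. Its log2 fold change was 0.23 ± 0.03 at 4 h, with an edgeR adjusted p of 1.1e-08, and -0.09 ± 0.03 at 24 h, with one of 0.0048. With plain library sizes the 24 h difference had the same direction and was larger, beside a median of -0.55 over all genes.

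Atf4, the transcription factor of the integrated stress response, is regulated mainly in translation, and only its mRNA was measured. It had 428, 367 and 383 CPM at 24 h in libraries labelled CIS-/-, against 134, 136 and 133 CPM in WT. The log2 fold change was 1.55 ± 0.04 (edgeR adjusted p = 1.8e-41), and 1.48 without replicate 1, which was the highest of its group. At the earlier times the genotype difference in Atf4 was not called, with a log2 fold change of 0.09 ± 0.04 before culture (edgeR adjusted p = 0.12) and 0.01 ± 0.04 after 4 h (0.90 in the same test). Before culture its groups did not overlap, as in 19.5% of all genes on the higher side. Atf4 was called there when edgeR was run on the 6 unstimulated libraries alone (adjusted p = 0.0080). It was also called in edgeR without replicate 1 labelled CIS-/- at 24 h (adjusted p = 0.038). In WT, Atf4 had 197, 192 and 195 CPM unstimulated and 138, 136 and 132 CPM at 4 h.

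Eif2ak3, the PERK kinase, had 50.0, 53.3 and 53.8 CPM at 24 h in libraries labelled CIS-/-, against 165, 166 and 165 CPM in WT. Its log2 fold change was -1.66 ± 0.04 (edgeR adjusted p = 6.2e-41). Against 4 h it fell in libraries labelled CIS-/-, by 1.45 on the log2 scale, and rose in WT, by 0.26. Ern1, the IRE1 kinase and endonuclease, had 42.6, 48.5 and 48.3 CPM at 24 h in libraries labelled CIS-/-, against 75.5, 75.6 and 74.4 CPM in WT. In WT Ern1 rose between 4 h and 24 h, by 0.98 ± 0.05 on the log2 scale, and in libraries labelled CIS-/- by 0.20 ± 0.06. Atf6 had 54.5, 57.1 and 58.6 CPM at 24 h in libraries labelled CIS-/-, against 38.0, 38.8 and 37.1 CPM in WT, a log2 fold change of 0.58 ± 0.05. At 4 h, Atf6 had 51.0, 51.5 and 56.8 CPM in libraries labelled CIS-/- and 49.6, 50.1 and 58.3 CPM in WT, groups that overlapped.

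In the ATF4 arm, 14 of 15 members were tested. At 24 h, 8 were higher and 3 lower in libraries labelled CIS-/- than in WT, and with TMM factors all 8 were at least 2-fold higher. The median log2 fold change was 1.12, against -0.02 over all genes, of which the same 38.2% were higher, 38.1% lower and 18.2% at least 2-fold higher. With plain library sizes the median of all genes moved to -0.55. Trib3, Slc7a5, Ddit3, Asns and Sars lay closer to the 2-fold line than that shift, so their place above it depends on scaling. The phosphatase subunit Ppp1r15a, the cystine carrier Slc7a11 and its heavy chain Slc3a2 led. The fall was in Chac1, Ddit4 and Nars, while Sesn2, Psat1 and Shmt2 were not called.

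**Figure D3:**
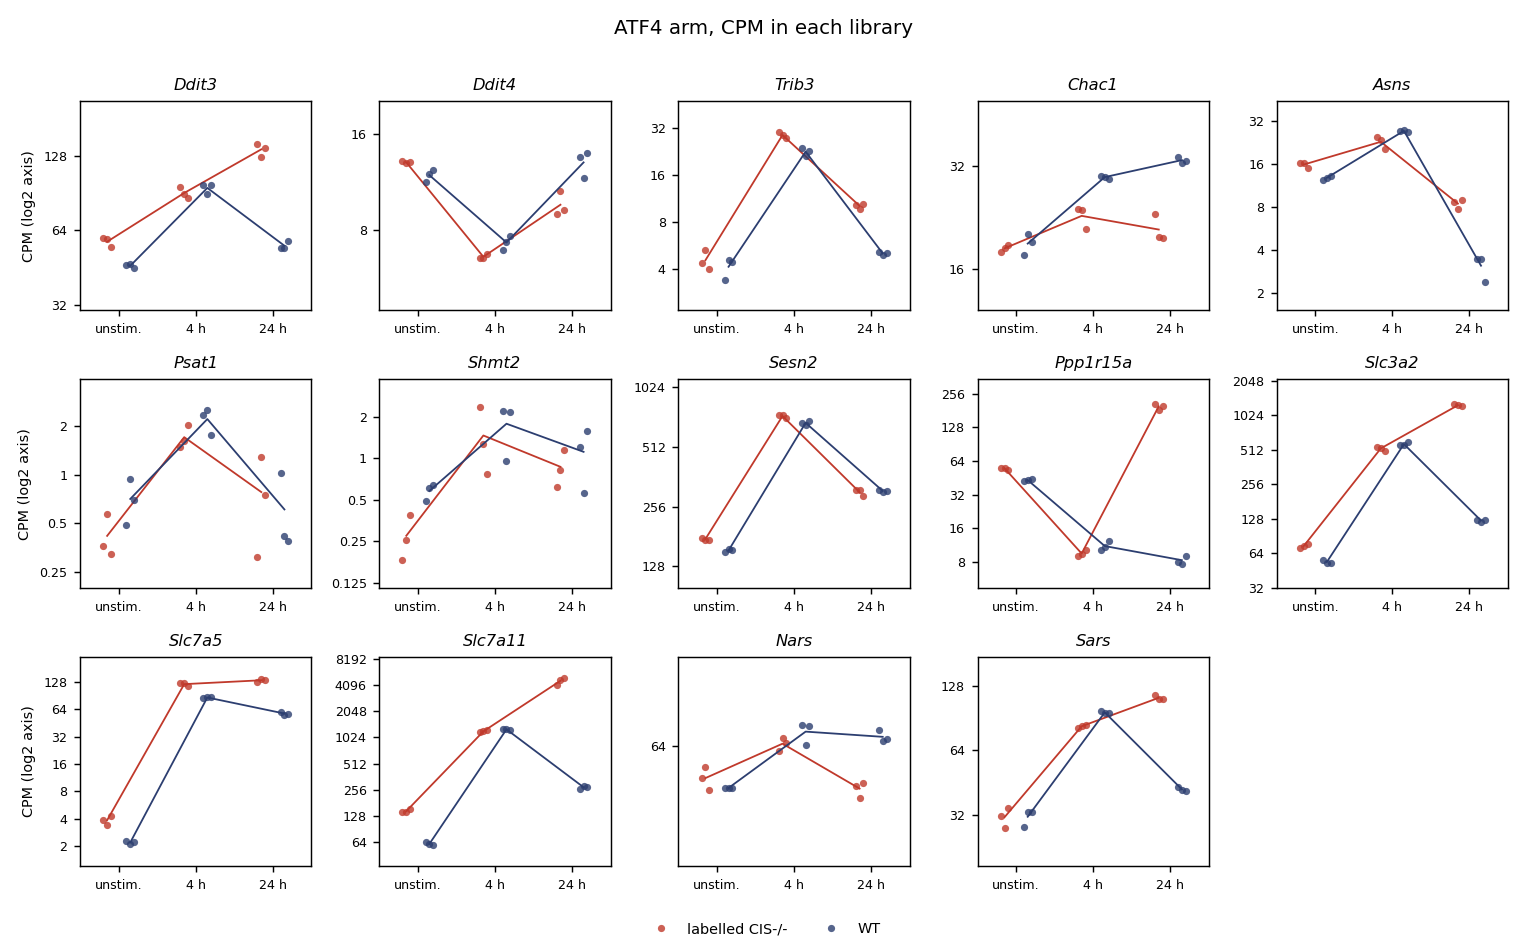
CPM of each tested ATF4-arm member in each of the 18 libraries, on a log2 axis, by time, with lines through the group means of libraries labelled CIS-/- and of WT. Most members rise at 4 h in both genotypes, and at 24 h Slc7a11 is at 4124 to 4906 CPM in libraries labelled CIS-/-, against 263 to 285 CPM in WT.

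Ppp1r15a encodes GADD34, the subunit that directs a phosphatase to eIF2α and so ends the translational block. It had 209, 183 and 198 CPM at 24 h in libraries labelled CIS-/-, against 8.05, 7.71 and 9.12 CPM in WT. The log2 fold change of 4.58 ± 0.06 was the largest of all members (edgeR adjusted p = 7.1e-57). Yet at 4 h it had fallen in both genotypes, to 8.95, 9.38 and 10.2 CPM in libraries labelled CIS-/-, against 55.8, 55.6 and 53.5 CPM unstimulated, and to 10.2, 10.9 and 12.2 CPM in WT, against 42.2, 43.3 and 44.1 CPM unstimulated.

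Slc7a11 is the cystine carrier xCT, and Slc3a2 is the heavy chain it shares with the leucine carrier Slc7a5. In libraries labelled CIS-/-, Slc7a11 had 141, 144 and 153 CPM unstimulated, 1168, 1198 and 1234 CPM at 4 h and 4124, 4681 and 4906 CPM at 24 h. In WT it had 63.8, 60.5 and 59.9 CPM unstimulated, 1269, 1270 and 1259 CPM at 4 h and 263, 285 and 275 CPM at 24 h. Libraries labelled CIS-/- thus lay above WT unstimulated (log2 fold change 1.25 ± 0.05) and at 24 h (4.06 ± 0.05). At 4 h the difference was not called (-0.08 ± 0.04, edgeR adjusted p = 0.26). The 4 h groups did not overlap, as in 17.5% of all genes on the lower side. The 4 h difference was called without replicate 1 labelled CIS-/- at 24 h (edgeR adjusted p = 0.024).

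Slc3a2 followed a like course, with 71.9, 74.0 and 76.6 CPM unstimulated, 548, 533 and 503 CPM at 4 h and 1293, 1253 and 1227 CPM at 24 h in libraries labelled CIS-/-. In WT it had 55.8, 52.4 and 53.1 CPM unstimulated, 561, 566 and 601 CPM at 4 h and 125, 120 and 126 CPM at 24 h. The 24 h log2 fold change between genotypes was 3.35 ± 0.04 (edgeR adjusted p = 2.8e-60). Slc7a5 had 128, 139 and 133 CPM at 24 h in libraries labelled CIS-/-, against 60.3, 55.6 and 56.2 CPM in WT (log2 fold change 1.22 ± 0.05). Unlike the other 2 it was low before culture, at 3.36 to 4.25 CPM in unstimulated libraries labelled CIS-/- and 2.08 to 2.26 CPM in WT.

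Among the enzymes and tRNA synthetases, directions differed. Asns, asparagine synthetase, had 8.68, 7.72 and 9.002 CPM at 24 h in libraries labelled CIS-/-, against 3.49, 3.44 and 2.40 CPM in WT. That is a log2 fold change of 1.44 ± 0.13, yet both groups lay below their unstimulated levels of 15.0 to 16.4 CPM in libraries labelled CIS-/- and 12.4 to 13.2 CPM in WT. Sars, the seryl-tRNA synthetase, had 116, 111 and 110 CPM, against 43.1, 41.9 and 41.2 CPM in WT (log2 fold change 1.42 ± 0.05). Nars, the asparaginyl-tRNA synthetase, had 52.1, 48.9 and 53.0 CPM, against 69.5, 65.8 and 66.5 CPM in WT (log2 fold change -0.38 ± 0.05). Psat1 and Shmt2, of serine and glycine synthesis, had at most 2.51 CPM in any library.

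The stress effectors also split. Ddit3 encodes CHOP, a transcription factor tied to death under lasting ER stress. It had 143, 126 and 138 CPM at 24 h in libraries labelled CIS-/-, against 54.5, 54.2 and 57.8 CPM in WT, a log2 fold change of 1.30 ± 0.05 (edgeR adjusted p = 5.9e-34). Ddit3 shares exonic bases with Mars on the opposite strand, which had 7205 counts in all libraries against 22444 for Ddit3. How strand was treated in the counting was not stated, so some of these reads may be of Mars. Trib3, a pseudokinase that restrains ATF4 and CHOP, had 10.3, 9.74 and 10.4 CPM, against 5.16, 4.93 and 5.05 CPM in WT (log2 fold change 1.01 ± 0.11). Chac1, which degrades glutathione, had 23.1, 19.9 and 19.7 CPM, against 34.0, 32.6 and 33.0 CPM in WT (log2 fold change -0.68 ± 0.07). Ddit4, an inhibitor of mTORC1, had 8.98, 10.6 and 9.20 CPM, against 13.5, 11.6 and 13.9 CPM in WT (log2 fold change -0.44 ± 0.09). Sesn2, another mTORC1 inhibitor, had 310, 309 and 290 CPM, against 310, 305 and 307 CPM in WT, groups that overlapped (log2 fold change -0.02 ± 0.03, edgeR adjusted p = 0.53). With plain library sizes Sesn2 lay lower in libraries labelled CIS-/- than in WT, beside a median of -0.55 over all genes.

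**Figure D4:**
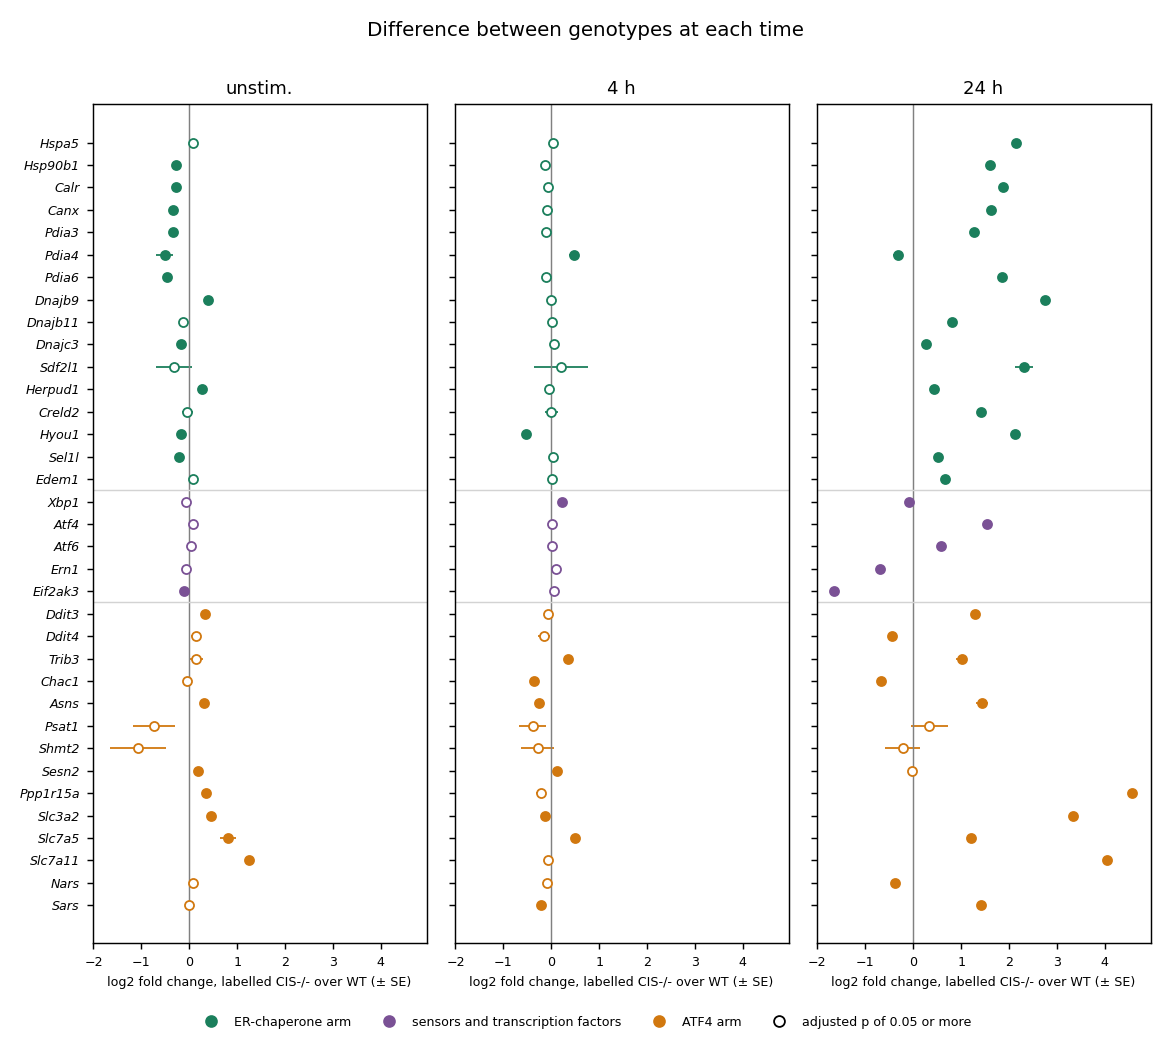
Log2 fold change of each tested member between libraries labelled CIS-/- and WT, with its standard error, unstimulated, at 4 h and at 24 h, with open circles where the edgeR adjusted p was 0.05 or more. The 24 h values run from -1.66 for Eif2ak3 to 4.58 for Ppp1r15a, and those at 4 h from -0.53 for Hyou1 to 0.49 for Slc7a5.

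The first 4 h raised the ATF4 arm in both genotypes. At 4 h against unstimulated 12 of 14 members were higher and 2 lower in libraries labelled CIS-/-, and likewise in WT, with median log2 fold changes of 1.70 and 1.59. Of all genes 37.9% were higher and 39.1% lower in libraries labelled CIS-/- and 38.1% and 38.2% in WT, with medians of -0.03 and -0.02. The 2 that fell were Ddit4 and Ppp1r15a in both. Between genotypes this 4 h change was tested as a genotype-by-time interaction. In libraries labelled CIS-/- 0 of 14 members were called with a larger log2 fold change and 6 with a smaller one (median -0.30). Slc7a11, Slc3a2, Ppp1r15a and Asns were among the 6. Over all 11569 genes 1820 were called in either direction, with a median of -0.02. On the wider ATF4 list given below 1 of 29 was larger and 3 were smaller. Slc7a5 rose most, by 4.98 ± 0.08 in libraries labelled CIS-/- and 5.30 ± 0.09 in WT on the log2 scale. Sesn2 rose to 739, 742 and 719 CPM at 4 h in libraries labelled CIS-/-, against 179, 175 and 175 CPM unstimulated, and to 677, 662 and 694 CPM in WT, against 151, 156 and 155 CPM unstimulated. Trib3 rose to 30.2, 28.6 and 27.3 CPM in libraries labelled CIS-/-, against 4.38, 5.32 and 3.99 CPM unstimulated, with a log2 fold change of 2.65 there and 2.43 in WT.

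Between 4 h and 24 h the genotypes parted. In WT 2 ATF4-arm members were higher and 11 lower at 24 h than at 4 h, with a median log2 fold change of -0.96. With plain library sizes 3 were higher and 9 lower in WT, beside 6762 higher and 2506 lower of all 11569 genes. In libraries labelled CIS-/- 7 were higher and 5 were lower, and the median was 0.00. Of all genes 35.7% were higher and 39.6% lower in WT, and 37.8% and 37.9% in libraries labelled CIS-/-. The falls in WT were led by Asns (-3.12 ± 0.10), Slc3a2 (-2.22 ± 0.04), Slc7a11 (-2.21 ± 0.05) and Trib3 (-2.15 ± 0.09). In libraries labelled CIS-/- Asns and Trib3 also fell (-1.42 ± 0.10 and -1.49 ± 0.09), while Slc7a11, Slc3a2 and Ppp1r15a rose (1.93 ± 0.04, 1.25 ± 0.03 and 4.37 ± 0.07). Sesn2 fell in both, by 1.28 in libraries labelled CIS-/- and by 1.14 in WT on the log2 scale.

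The difference in time course was itself tested as a genotype-by-time interaction. For 24 h against 4 h, 14 of 16 ER-chaperone members had a larger log2 fold change in libraries labelled CIS-/- and 1, Pdia4, a smaller one, beside 33.9% and 32.1% of all genes. With plain library sizes Herpud1 and Sel1l were not called in this test. In the ATF4 arm 8 of 14 were larger and 3 smaller. The interaction was 4.80 ± 0.13 for Ppp1r15a, 4.14 ± 0.06 for Slc7a11 and 3.47 ± 0.05 for Slc3a2 on the log2 scale. It was 2.75 ± 0.11 for Dnajb9, 2.66 ± 0.06 for Hyou1 and 2.12 ± 0.05 for Hspa5. Eif2ak3 had an interaction of -1.71 ± 0.06 and Atf4 one of 1.53 ± 0.06. The highest edgeR adjusted p of these 8 was 1.5e-29, for Dnajb9.

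**Figure D5:**
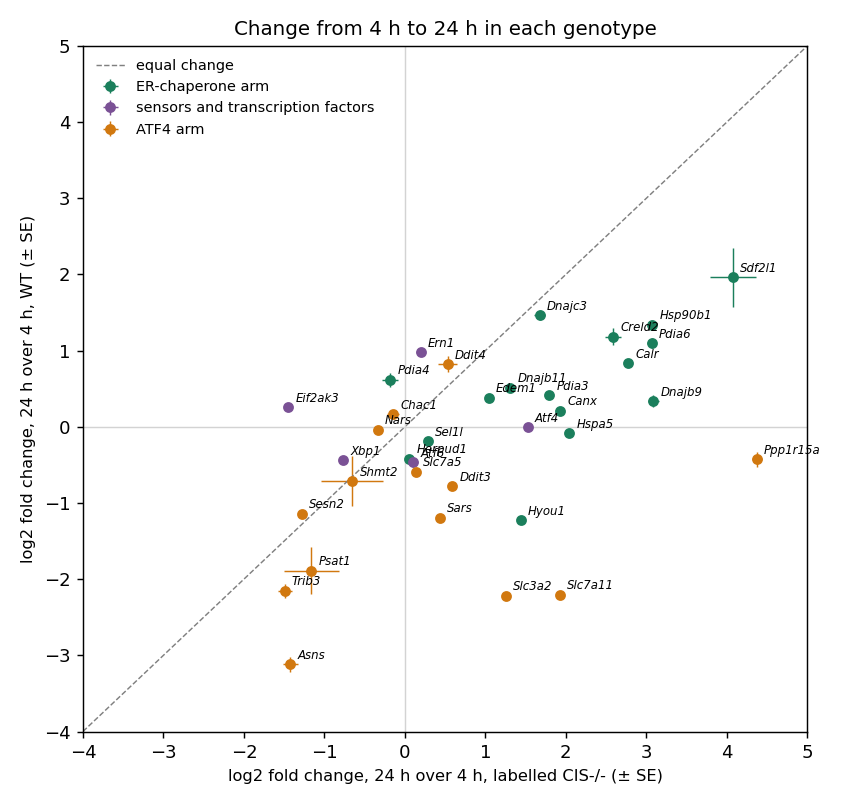
Log2 fold change between 4 h and 24 h of each tested member in libraries labelled CIS-/- and in WT, 1 point per gene, coloured by arm, with the diagonal of equal change. Ppp1r15a, at 4.37 in libraries labelled CIS-/- and -0.43 in WT, lies farthest from the diagonal (0.06 in WT with plain library sizes), and Eif2ak3 lies on its other side, at -1.45 and 0.26.

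At 4 h the genotypes differed by less than 2-fold in every tested member, and calls were fewer in the ER-chaperone arm than in the ATF4 arm. In the ER-chaperone arm 1 of 16 members was higher and 1 lower in libraries labelled CIS-/-, beside 8% higher and 9.29% lower of all genes. Pdia4 was higher, with 15.0, 15.1 and 14.9 CPM in libraries labelled CIS-/-, against 9.82, 10.7 and 12.1 CPM in WT. Hyou1 was lower, with 145, 143 and 139 CPM, against 206, 202 and 209 CPM in WT (log2 fold change -0.53 ± 0.04). These 2 went the other way at 24 h. In the ATF4 arm 3 of 14 were higher and 4 lower, beside the same shares of all genes. Slc7a5 was higher, with 124, 125 and 114 CPM in libraries labelled CIS-/-, against 84.2, 88.0 and 86.4 CPM in WT, and Chac1 lower, with 23.9, 23.8 and 20.9 CPM, against 29.9, 29.8 and 29.2 CPM in WT. The other calls were Trib3 (0.35) and Sesn2 (0.11) higher and Asns (-0.25), Sars (-0.21) and Slc3a2 (-0.12) lower on the log2 scale; Asns was not called with DESeq2 (adjusted p = 0.093), and Asns, Slc3a2 and Sesn2 each lost the call when 1 of 2 single libraries of the 4 h groups was left out.

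Before culture the listed members of the 2 arms leaned in different directions. Beside this, the erythroid markers were higher in libraries labelled CIS-/-, as given with the library facts, and the granulocyte precursor markers summed to 26.5 to 30.5 CPM there, against 36.9 to 38.7 CPM in WT. In unstimulated libraries labelled CIS-/- 2 ER-chaperone members were higher and 9 lower than in WT, beside 12.9% higher and 9.41% lower of all genes, with a median log2 fold change of -0.20 against -0.01 over all genes. By DESeq2 4 were higher and 6 lower. The members that were lower included Pdia6 (15.8 to 18.3 CPM in libraries labelled CIS-/-, against 22.1 to 24.8 CPM in WT) and Canx (43.5 to 49.8 CPM, against 56.3 to 61.6 CPM in WT). Dnajb9 was higher, with 91.9, 92.2 and 101 CPM, against 76.3, 70.5 and 71.3 CPM in WT (log2 fold change 0.39 ± 0.05). In the ATF4 arm 7 of 14 were higher and 0 lower, and DESeq2 also gave 7 and 0. At an unadjusted p under 0.05 edgeR also gave 0 lower. The 7 were Slc7a11 (1.25), Slc7a5 (0.81), Slc3a2 (0.46), Ppp1r15a (0.35), Ddit3 (0.32), Asns (0.31) and Sesn2 (0.19) on the log2 scale. The wider ATF4 list given below did not lean this way, with 3 members higher and 4 lower. Of the sensors Eif2ak3 alone was called (-0.12 ± 0.04), a call that DESeq2 did not make (adjusted p = 0.055) and that was lost without WT replicate 2 or without replicate 3 labelled CIS-/- (edgeR adjusted p = 0.27 and 0.17). Xbp1 was called with plain library sizes (-0.11, edgeR adjusted p = 0.031).

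Other genes of the pathways were counted on wider lists. Of 50 further ER folding, translocation and degradation genes 43 were tested; at 24 h 33 were higher and 6 lower in libraries labelled CIS-/- than in WT, with a median log2 fold change of 0.65, beside 38.2% higher and 38.1% lower of all genes. P4hb, the archetypal protein disulfide isomerase, had 533, 530 and 518 CPM in libraries labelled CIS-/-, against 117, 121 and 114 CPM in WT. Manf, a secreted ER stress protein, had 85.3, 80.0 and 79.7 CPM, against 17.2, 18.2 and 15.6 CPM in WT. Their log2 fold changes were 2.16 and 2.25. Ero1l, the oxidase that recharges disulfide isomerases, had 84.5, 93.8 and 93.2 CPM, against 32.3, 35.8 and 34.4 CPM in WT. Ddrgk1, of ER protein ufmylation, fell most, to 1.94, 1.75 and 2.30 CPM, against 7.82, 7.92 and 7.50 CPM in WT. Before culture 5 members of this list were higher and 8 lower in libraries labelled CIS-/- than in WT. The shares of all genes were 12.9% and 9.41%, and the list's median log2 fold change was -0.03, against -0.01 over all genes.

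Of 36 further ATF4-associated genes 29 were tested, and at 24 h 17 were higher and 8 lower in libraries labelled CIS-/-, with a median log2 fold change of 0.51, beside the same shares of all genes. Atf3, a stress-induced transcription factor, had 1004, 946 and 977 CPM in libraries labelled CIS-/-, against 40.3, 37.9 and 39.3 CPM in WT (log2 fold change 4.64 ± 0.04). Shmt1, the cytosolic serine hydroxymethyltransferase, had 36.5, 34.7 and 35.2 CPM, against 0.465, 0.521 and 0.294 CPM in WT, whereas the mitochondrial member Shmt2 stayed under 2 CPM in all 24 h libraries. Slc1a5, a glutamine carrier, had 81.5, 77.0 and 74.4 CPM, against 10.0, 10.4 and 8.58 CPM in WT. Pck2, a mitochondrial enzyme of phosphoenolpyruvate synthesis, was lower, with 0.852, 2.11 and 1.45 CPM, against 6.84, 6.53 and 7.60 CPM in WT. Of this list 21 members were higher and 2 lower at 4 h against unstimulated in libraries labelled CIS-/-, and 24 higher and 2 lower in WT, beside 37.9% and 39.1% of all genes in libraries labelled CIS-/- and 38.1% and 38.2% in WT. At 24 h against 4 h, 12 were higher and 16 lower in libraries labelled CIS-/- (37.8% and 37.9% of all genes), and 5 higher and 20 lower in WT (35.7% and 39.6%). Before culture 3 were higher and 4 lower in libraries labelled CIS-/- than in WT (12.9% and 9.41% of all genes). The list's median log2 fold change there was -0.11, against -0.01 over all genes.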

How the data were processed

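The deposited table of raw read counts per Ensembl gene covers 18 libraries. The authors made these counts with Trimmomatic, STAR and featureCounts on mm10, according to the submitters' processing notes. Tool versions, the treatment of strand and the annotation were not given in the sources used here. A directional kit was used, per the labels' protocols. For the second culture time the treatment label has a longer figure than titles and extraction protocol; the 24 h of those was used. GENCODE M21 (GRCm38, equal to mm10) named 53274 IDs, and the 105 unnamed IDs held 0.0238% of counts.

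Tests used R 4.3.3 and edgeR 4.0.16: filterByExpr by group, TMM factors, a robust quasi-likelihood fit of 6 groups to 18 libraries, two-sided contrasts and Benjamini-Hochberg adjustment over 11569 genes holding 99.93% of counts. The biological coefficient of variation was 3.30%, on 12 residual degrees of freedom. Called means an adjusted p under 0.05, and each adjusted p is from edgeR unless DESeq2 1.42.0 is named. CPM use TMM-scaled library sizes, and RPKM divide them by the union of a gene's exons. Scripts were tested on simulated data. No 2 replicates were duplicates: their chi-square per degree of freedom was 1.29 or more. Alternatives were RLE factors, plain library sizes, DESeq2, 2 other filters (none, or 50 counts in 3 libraries), the compared groups only, a replicate block and each library left out. Members and lists were chosen with earlier results of these data known. By rule, the members picked per comparison were the 4 called ones with the largest change per arm and direction and at least 5 CPM, and all 5 sensors. Values are given for a choice of these and not for every comparison. Others are named by their levels or as exceptions. The level of 1 listed marker gene is not reported here.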

Additional observations from a re-analysis of the deposited data

Results flagged for a closer look

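The change between 4 h and 24 h differed between genotypes in the edgeR interaction test for most of the 35 tested members. Of these 24 were called larger and 7 smaller in libraries labelled CIS-/-, beside 33.9% and 32.1% of all genes. Values follow for 10 members, those among the largest calls of each arm and the sensors whose interaction was at least 2-fold. For 24 h against 4 h, the log2 fold change in libraries labelled CIS-/- minus that in WT was 1.53 for Atf4, -1.71 for Eif2ak3, 2.75 for Dnajb9, 2.66 for Hyou1, 2.12 for Hspa5 and 2.11 for Sdf2l1. In the ATF4 arm it was 4.80 for Ppp1r15a, 4.14 for Slc7a11, 3.47 for Slc3a2 and 1.69 for Asns. For 4 h against unstimulated it was -1.32 for Slc7a11. No single value of a member was tested for lying apart from its group of 3.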

How the results depend on the processing

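Across 900 recomputed counts of calls, over the arms, all genes and 12 comparisons, the total of calls in both directions stayed within 1.5 times its value; of 8787 recomputed member values 8597 kept direction and call, 135 lost a call, 10 gained 1 and 45 changed sign. Plain library sizes turned 21 log2 fold changes. Between genotypes at 24 h they gave -0.256 for Dnajc3, -0.105 for Herpud1, -0.0146 for Sel1l and -0.19 for Psat1. For WT at 24 h against 4 h they gave 0.046 for Xbp1, 0.48 for Atf4, 0.0187 for Atf6, 0.0678 for Herpud1, 0.29 for Sel1l, 0.0588 for Ppp1r15a and 0.40 for Hspa5. They gave 0.11 for Hspa5 in WT at 24 h against unstimulated, -0.0281 for Eif2ak3 in WT at 4 h against unstimulated, -0.00837 for Chac1 in libraries labelled CIS-/- at 24 h against unstimulated, -0.0033 for Atf6 between unstimulated genotypes and 0.0055 for its interaction at 4 h. They gave interactions of -0.0504 for Herpud1 and -0.0454 for Sel1l at 24 h against 4 h, and of -0.0367 for Dnajc3, -0.331 for Herpud1 and -0.0826 for Slc7a5 at 24 h against unstimulated. Atf4 in WT at 24 h against 4 h was 0.00027 with RLE factors, 0.0046 with DESeq2, 0.020 without a filter and 0.048 in the compared groups only, and Ern1 in WT at 4 h against unstimulated was 0.0042 in the compared groups only; Sesn2 between genotypes at 24 h was 0.00376 with RLE factors. With single libraries left out, Ern1 in WT at 4 h against unstimulated ran from -0.0546 to 0.022, Atf4 in WT at 24 h against 4 h from -0.0254 to 0.012, Atf4 between genotypes at 4 h from -0.0078 to 0.0434, Atf6 between genotypes at 4 h from -0.037 to 0.0866, the Atf6 interaction at 4 h from -0.0749 to 0.049 and the Xbp1 interaction at 24 h against unstimulated from -0.0702 to 0.000496. Between genotypes at 24 h, Psat1 ran from -0.053 to 0.891, Shmt2 from -0.595 to 0.111 and Sesn2 from -0.0398 to 0.00864. The cause of these turns was not tested. Over all genes, plain library sizes gave 2558 higher and 6998 lower between genotypes at 24 h, against 4416 and 4411; 6762 and 2506 for WT at 24 h against 4 h, against 4128 and 4586; 6351 and 3165 for WT at 24 h against unstimulated, against 4707 and 4361; 1167 and 1660 between unstimulated genotypes, against 1489 and 1089; and, for the interaction, 2247 and 6154 at 24 h against 4 h, against 3921 and 3711, and 2029 and 6178 at 24 h against unstimulated, against 3659 and 3830.

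Same-numbered replicates showed little shared deviation: 0 of 27 pairs had a correlation over 0.1 (-0.059 to 0.050). Deviations within groups were small and partly counting noise, so low correlations cannot settle whether same numbers share a source. In the main fit the numbers were used as sample names only. With the replicate block the ER-chaperone arm still had 16 calls and the ATF4 arm 11 at 24 h between genotypes. Low depth limits Psat1, Shmt2, Sdf2l1 and Phgdh.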

Other observations

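Further genes of stress sensing and signalling, among them some downstream of the sensors, were counted on a list of 25 that were all tested. At 24 h, 6 were higher and 12 lower in libraries labelled CIS-/- than in WT, with a median log2 fold change of -0.12, beside 38.2% higher and 38.1% lower of all genes. Nfe2l2, the NRF2 regulator of the antioxidant response and of Slc7a11, had 903, 872 and 871 CPM in libraries labelled CIS-/-, against 296, 314 and 306 CPM in WT (log2 fold change 1.53 ± 0.03). Eif2s1, the eIF2α subunit itself, had 15.6, 16.8 and 14.7 CPM, against 4.84, 6.60 and 6.42 CPM in WT (log2 fold change 1.37 ± 0.10). Eif2ak2, the eIF2α kinase PKR, had 14.3, 15.5 and 16.9 CPM, against 9.16, 10.9 and 9.80 CPM in WT. The groups of these genes did not overlap, as in 37.6% of all genes on the higher side.

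On the lower side, Map3k5, the ASK1 kinase downstream of IRE1, had 42.4, 46.2 and 47.1 CPM at 24 h in libraries labelled CIS-/-, against 106, 105 and 102 CPM in WT (log2 fold change -1.20 ± 0.04). Eif2b4, a subunit of the exchange factor of eIF2, had 4.34, 3.31 and 4.50 CPM, against 11.4, 10.0 and 11.8 CPM in WT (log2 fold change -1.41 ± 0.12).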
